A study of Oryza sativa Indica Group with 17 samples.

Results

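Small heat shock proteins are chaperones that bind unfolding proteins during heat and other stress and hold them in a state from which larger chaperones can refold them. Plants carry many such genes, which are short, and their products work in the cytosol and in several organelles. The genes HSP24.1 (LOC4330786, chromosome 2), HSP23.2 (LOC4335956, chromosome 4), HSP22.3 (LOC4339231, chromosome 5) and HSP16.9B (LOC4325698, chromosome 1) were examined here in the genomic DNA of deletion mutants. HSP24.1 encodes a mitochondrial protein and HSP16.9B a cytosolic protein of class I. They were found by symbol or synonym in the gene table of the japonica rice assembly ASM3414082v1, and are 4 of 17903 measured nuclear genes. The synonym HSP16.9B is also carried by a neighbouring gene, LOC4325697, which is called HSP16.9A below.

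Genomic DNA from leaves of plants 45 days old was hybridized to the Rice GeneChip, with 1 array for each of 16 mutant lines and 1 for wild type IR64 (the wild type check). All lines derive from the indica variety IR64 and were advanced by single seed descent to the M4 or M5 generation. D1137 comes from diepoxybutane (DEB) treatment and carries an allele of spl1, a lesion mimic locus, by complementation tests. G6989 comes from gamma rays, and the sources used here name no phenotype for it. The other arrays are d1, the DEB lines D256 and D2943, the gamma ray lines G282, G650, G6485, G6489, G6603, G6686, G6728, G7534 and G9799, the fast neutron lines F1856 and F2045, and the wild type check. Neither D1137 nor G6989 is among the lines whose screening results the study lists. Of the other lines, D2943, G650 and F1856 carry alleles of spl1, and G9799 and F2045 show its phenotype without a test of allelism. The sample labels give DEB as the mutagen of d1, while the methods of the study give gamma rays.

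Each value is the share of the perfect match probes of a probe set that were flagged as low against wild type, from 0 to 1. Which log2 cutoff lies behind these flags is not settled. Each of the 4 genes is measured by 1 set of 11 probes, so that 1 probe is a step of 0.0909 and the number of probes limits the precision. A gene was called, as a candidate for loss, at a share of 0.5 or more, that is at 6 or more of 11 probes. The mean share over all measured genes was 0.0493 in D1137, 0.216 in G6989 and 0.0815 in the wild type check, and between 0.00385 (G650) and 0.144 (G282) on the other arrays. RGA1, the gene lost in d1, had a share of 0.909 on the array labelled d1 and at most 0.364 on any other array. With 1 array per line no spread between replicates is known. The 4 genes were chosen by their shares in D1137 and G6989, so these values are a description, and no test was made.

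In D1137, 3 of the 4 genes were called, HSP24.1, HSP23.2 and HSP22.3, against 1.69% of all measured genes on that array. In G6989, 1 of the 4 was called, HSP16.9B, against 3.1% of all measured genes. None of the 4 was called on the other 15 arrays. Of all measured genes, 1.32% were called in G282, 0.195% in G6603, 0.0838% in G7534, 0.0726% in d1, 0.067% in each of G6686, F1856 and F2045, 0.0614% in G9799, 0.0559% in G650, 0.0279% in G6489, 0.0168% in D2943, 0.0112% in D256 and in G6728, 0.00559% in the wild type check and 0% in G6485. A gene without a call is thus the usual case on these arrays. Of the 60 pairs of a gene with one of these 15 arrays, 44 had no flagged probe. No array had all 4 genes called, and none of the 4 was called on more than 1 array. Of the 17903 measured genes, 1060 were called on at least 1 array. There were 302 genes called in D1137, 555 in G6989, 237 in G282 and 35 or fewer on each other array. With so few calls per array, most of the 1060 can have been called on only 1 array. The exact number called on more than 1 array was not counted. The lack of overlap is thus the usual case and does not set the 4 genes apart. With the share of the wild type check subtracted, HSP23.2 alone of the 4 was called in D1137 and none in G6989, and with a threshold of 0.6 the calls of HSP22.3 in D1137 and HSP16.9B in G6989 were lost.

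**Figure D1:**
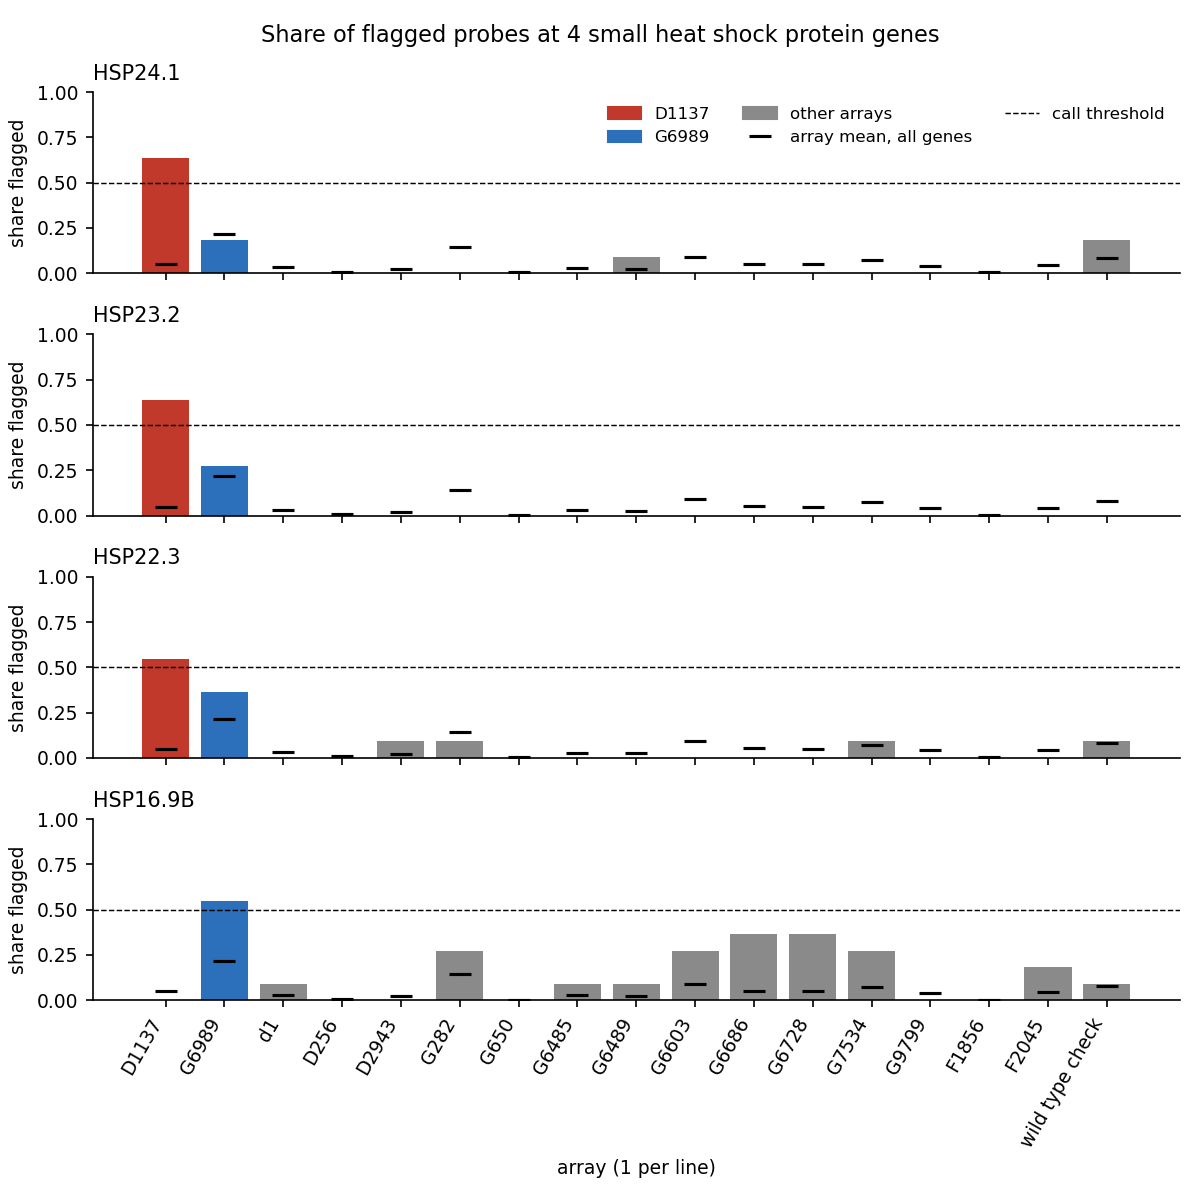
Share of flagged probes (0 to 1) at HSP24.1, HSP23.2, HSP22.3 and HSP16.9B on each of the 17 arrays, with black ticks for the mean share of all measured genes on the array and a dashed line at the call threshold of 0.5. HSP24.1, HSP23.2 and HSP22.3 pass the line only in D1137 and HSP16.9B only in G6989.

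HSP24.1 had 7 of 11 probes flagged in D1137 (share 0.636). Its share was 0.182 in G6989 and the wild type check, 0.0909 in G6489 and 0 on the other 13 arrays. D1137 thus stands 5 probes above the next arrays, which do not differ from each other. In G6989 its share lies just under the mean of that array, and 68.1% of all measured genes had a share as high or higher there. In D1137 a share as high as that of HSP24.1 was reached by 0.843% of genes.

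HSP23.2 likewise had 7 of 11 probes flagged in D1137 (0.636). G6989 followed with 0.273, and none of its probes was flagged on any of the other 15 arrays, the wild type check included. Of the 4 genes it is the 1 with no flagged probe outside the 2 lines. In G6989 its share lies 0.0572 above the array mean, which is less than the step of 1 probe, and 41.4% of genes were as high or higher.

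HSP22.3 had 6 of 11 probes flagged in D1137 (0.545), the lowest number that makes a call. In G6989 its share was 0.364. It was 0.0909 in D2943, G282, G7534 and the wild type check, a single probe each, and 0 on the other 11 arrays. In G6989 a share as high as that of HSP22.3 was reached by 20.7% of genes, so this second level is common on that array.

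HSP16.9B was called in G6989 and not in D1137, unlike the other 3 genes. None of its probes was flagged in D1137, and 6 of 11 were flagged in G6989 (0.545), a level that 2.92% of genes reached on that array. It was 0.364 in G6686 and G6728, 0.273 in G282, G6603 and G7534, 0.182 in F2045, and 0.0909 in d1, G6485, G6489 and the wild type check. D256, D2943, G650, G9799 and F1856 had no flagged probe. The call in G6989 stands 2 probes above G6686 and G6728, and neighbours in this order differ by 1 or 2 probes. A share as high as that of HSP16.9B was reached by 0.721% of genes in G6686 and 0.436% in G6728, fewer than in G6989. Its share lay 0.33 above the array mean in G6989, 0.31 in G6686 and 0.314 in G6728. Against the mean of each array, HSP16.9B was thus about as high in G6686 and G6728 as in G6989. On 10 of the 15 other arrays HSP16.9B had at least 1 flagged probe, against 2 for HSP24.1, 0 for HSP23.2 and 4 for HSP22.3.

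The mean share of the 4 genes was 0.455 in D1137 and 0.341 in G6989, and its median over the other 15 arrays was 0.0455 (range 0 to 0.0909). The difference from that median was 0.409 in D1137 and 0.295 in G6989. With each array minus its mean share over all probe sets it was 0.402 in D1137 and 0.162 in G6989. Over the 17 arrays, the shares of HSP23.2 correlated with those of HSP22.3 (Pearson's r = 0.951) and of HSP24.1 (r = 0.944), while HSP16.9B had r = -0.106 with HSP24.1, 0.0178 with HSP23.2 and 0.146 with HSP22.3. All arrays were set against wild type, so the points are not independent. The 4 genes were chosen by their shares in D1137 and G6989, so these values follow in part from that choice. HSP23.2 had a share of 0 on the other 15 arrays. Each r of HSP23.2 therefore rests on D1137 and G6989, and without D1137 on G6989 alone. Over the 16 arrays without D1137, r was 0.639 for HSP24.1 with HSP23.2, 0.688 for HSP24.1 with HSP22.3 and 0.904 for HSP23.2 with HSP22.3. On those arrays HSP16.9B had r = 0.307 with HSP24.1, 0.609 with HSP23.2 and 0.581 with HSP22.3. In those arrays the highest share of HSP23.2, HSP22.3 and HSP16.9B is that of G6989, the array with the highest mean share of all genes.

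The gene family was then taken as a whole. The gene table lists 22 small heat shock protein genes by name, 19 of which are measured by a probe set paired with exactly 1 gene; HSP16.9C, HSP18.9 and HSP19.0 are not among them. Of the 19, the 4 genes above are the ones called on any array, against 1060 of all 17903 measured genes. The remaining 15 had a median share of 0 in D1137 (range 0 to 0.364), equal to the median of 0 over all measured genes, and 8 of them had a share of 0. In G6989 their median was 0.182 (range 0 to 0.364), again equal to that over all genes. Calls at small heat shock protein genes in D1137 were thus 3 of 19, with 9 of 19 at 0 and 7 between. The 3 are genes chosen by their shares there. Of all measured genes 1.69% were called in D1137, and 5.11% of those in the shortest of 5 length bins, which holds 18 of the 19.

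**Figure D2:**
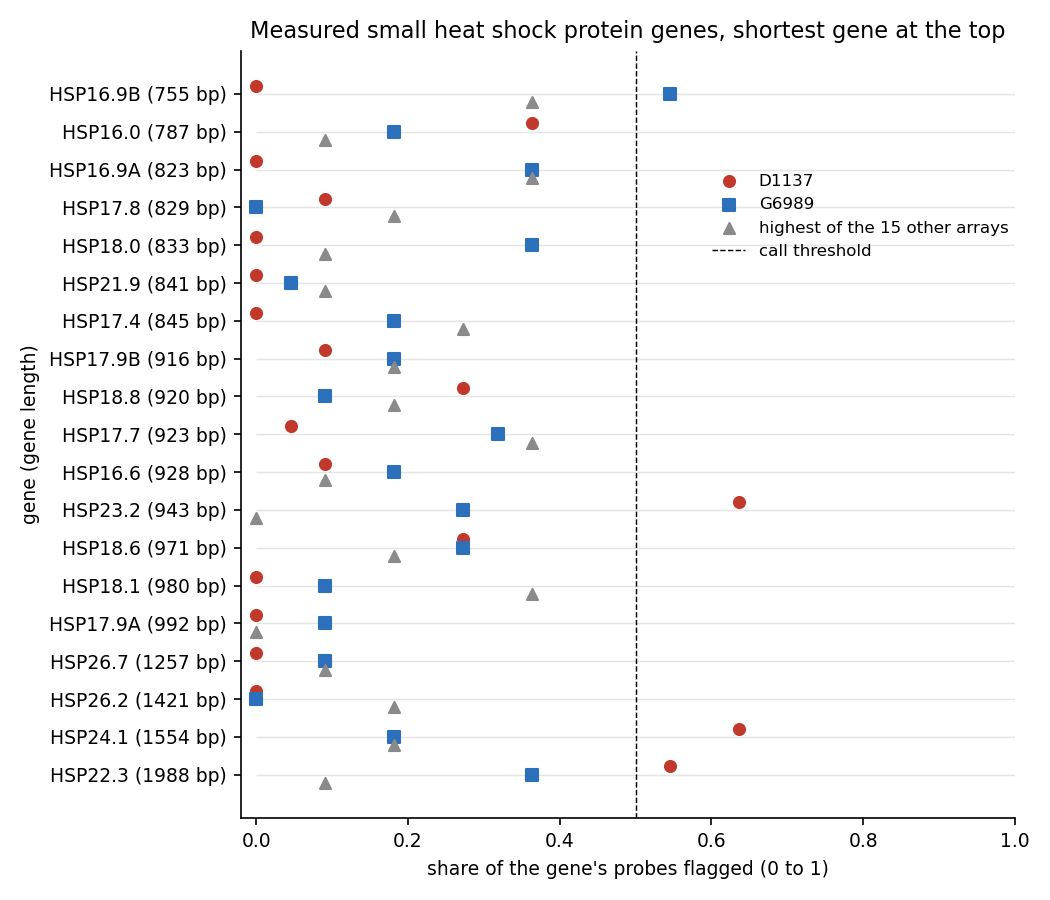
Share of flagged probes for the 19 measured small heat shock protein genes, ordered by gene length with the shortest at the top: circles for D1137, squares for G6989 and triangles for the highest of the 15 other arrays, with the call threshold of 0.5 as a dashed line. In D1137 the shares of HSP24.1, HSP23.2 and HSP22.3 lie past the line and the next, HSP16.0, is at 0.364.

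Highest below the threshold in D1137 was HSP16.0, with a share of 0.364, followed by HSP18.6 and HSP18.8 with 0.273 each. Highest below it in G6989 were HSP16.9A, HSP18.0 and HSP22.3 with 0.364 each, a share that 20.7% of all measured genes reached there. HSP26.7, which encodes a chloroplast protein, had 0 in D1137 and 0.0909 in G6989, and HSP26.2 had 0 in both. HSP17.9A had 0.0909 in G6989 and no flagged probe on the other 16 arrays.

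HSP18.0 shows that probe sets of 1 gene can differ. One of its 3 sets had a share of 0.636 in D1137 and 0.0909 in the wild type check, while the other sets had 0 in D1137. The gene share, a median over sets, was 0, and with the highest share over sets HSP18.0 would be called in D1137 as well. HSP18.6, which also has 3 sets, had 0.364, 0.273 and 0.182 in D1137. Of the 19 genes, 14 including the 4 above have a single set, so that such a comparison within the gene cannot be made for them.

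Other parts of the heat shock response were compared in the same way. Among 20 measured heat shock factor genes, which encode transcription factors of the heat shock response, 1 was called in D1137. It was HSFC2A with a share of 0.636, against 0.182 in G6989 and 0.0909 in the wild type check. Of all measured genes 1.69% were called in D1137, and 5.11% of those in the shortest of 5 length bins, to which HSFC2A (1575 bp) belongs. HSFC1A followed in D1137 with 0.364, and the median of the 20 was 0. In G6989 no heat shock factor gene was called, and HSFA4D was highest with 0.455. Among 8 measured genes of the large chaperones none was called in D1137, where the highest share was 0.0909. In G6989 the HSP90 gene HSP81-2 (0.727) and BIP1 (0.545), an HSP70 of the endoplasmic reticulum, were called, 2 of 8 genes against 3.1% of all measured genes. CLPB1, the HSP101 disaggregase, had 0.0909 in D1137 and 0.364 in G6989.

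To see whether the calls lay beside other called genes, the 5 measured genes on each side of each gene were read. The nearest measured neighbours of HSP24.1 in D1137, LOC4330785 and LOC4330787, both had a share of 0. Of its 10 neighbours, 1 was called, LOC4330781 (0.636), with LOC4330783 (0) and LOC4330785 between it and HSP24.1. Around HSP23.2, LOC4335955 had 0 and LOC4335957 had 0.273 in D1137, and LOC4335949 (0.545) was the 1 called neighbour of 10. It lies at the far edge of the stretch, with 3 genes at 0 and LOC4335951 (0.0909) in between.

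HSP22.3 had the highest shares around it in D1137. The median of its 10 neighbours was 0.227, against 0.0455 for HSP24.1 and 0 for HSP23.2. LOC4339236 (0.727) was called, LOC4339225 had 0.455, and LOC4339223 and LOC4339234 had 0.364 each. The nearest genes were lower, LOC4339230 at 0.182 and LOC4339232 at 0.0909. None of the 3 genes called in D1137 was therefore next to another called gene, though 1 of the 10 neighbours of each was called. On that array 1.69% of all measured genes were called.

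HSP16.9B lies in a group of small heat shock protein genes on chromosome 1. Its neighbours on one side are HSP16.9A, HSP17.9B and HSP16.6. In G6989 these had shares of 0.364, 0.182 and 0.182, against 0.545 for HSP16.9B, and LOC4325699 on the other side had 0.364. In D1137 HSP16.9A had 0 and HSP17.9B and HSP16.6 had 0.0909 each, while LOC4325699 had 0.455. None of the 10 neighbours of HSP16.9B was called in either line. In the wild type check HSP16.9A had 0.364, its value in G6989 too, and HSP16.9B had 0.0909. In G6686 the share was 0.0909 for HSP16.9A and 0.364 for HSP16.9B, and in G6728 it was 0 and 0.364, so the sets of these genes, which share a name, gave different values. Whether probes of one also bind DNA of the other was not tested.

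**Figure D3:**
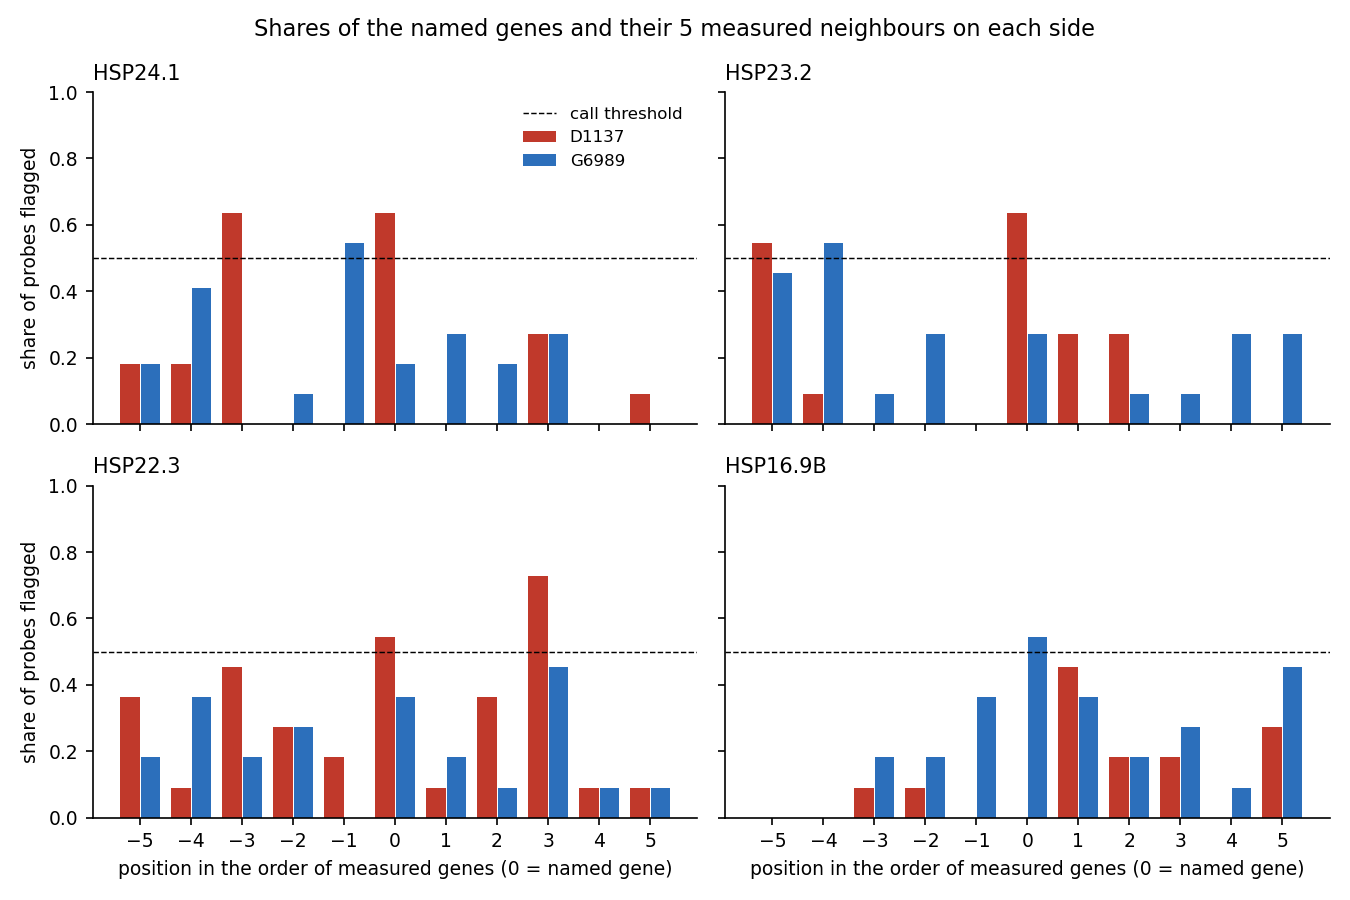
Share of flagged probes in D1137 (left bar) and G6989 (right bar) for each of the 4 genes, at position 0, and the 5 measured genes on each side in gene order, with a dashed line at the threshold of 0.5. The genes next to HSP24.1, HSP23.2 and HSP22.3 have shares of 0.273 or less in D1137, and those next to HSP16.9B have 0.364 in G6989.

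The 4 genes are short. The length of the gene model is 755 bp for HSP16.9B, 943 bp for HSP23.2, 1554 bp for HSP24.1 and 1988 bp for HSP22.3, against a median of 3526 bp over all measured genes. HSP16.9B is longer than 1.69% of measured genes, HSP23.2 than 4.18%, HSP24.1 than 13.4% and HSP22.3 than 21.1%. All measured genes were put in 5 equal bins of length. HSP16.9B, HSP23.2 and HSP24.1 fall in the shortest bin (121 to 1921 bp) and HSP22.3 in the next (1922 to 2995 bp). Of the 19 small heat shock protein genes, 18 are in the shortest bin and HSP22.3 is the other one.

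In D1137 the calls over the whole genome were concentrated in short genes. In the shortest bin 5.11% of genes were called (183 of 3582), in the next 1.26%, and in the longer bins 0.698%, 0.587% and 0.782%. The 302 genes called in D1137 had a median length of 1565 bp. In G6989 the order was the other way, with 1.73% of the shortest bin called, 2.96% of the next and 4.3% of the longest, and the 555 called genes had a median length of 3989 bp. On the other 15 arrays between 0% and 0.838% of the shortest bin were called, the highest in G282, where the longest bin had 1.96%.

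**Figure D4:**
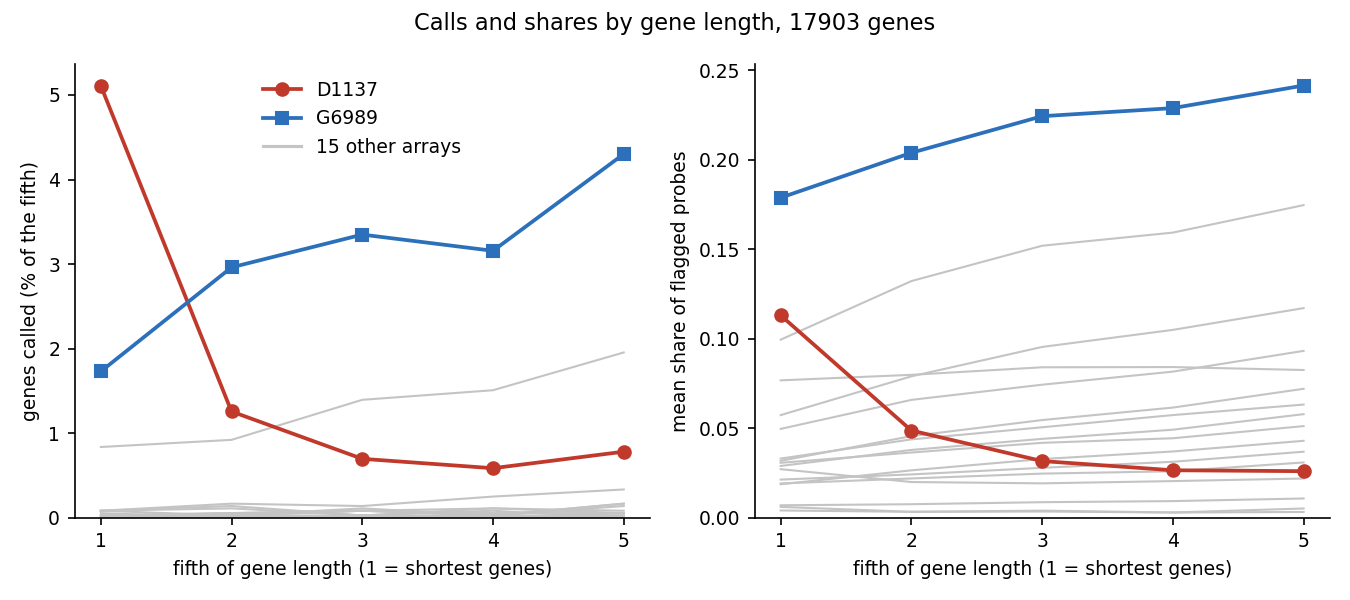
Percent of genes called (left) and mean share of flagged probes (right) in 5 equal bins of gene length from the shortest (1) to the longest (5), for D1137 (circles), G6989 (squares) and the 15 other arrays (grey lines). D1137 has 5.11% called in the shortest bin and 0.782% in the longest, whereas G6989 has 1.73% and 4.3%.

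Mean shares followed the same order. In D1137 the mean was 0.113 in the shortest bin and 0.0261 in the longest, and in G6989 it was 0.179 and 0.242. Across the 17903 genes, which are not independent replicates, Spearman's rho of gene length with share was -0.249 in D1137 and 0.166 in G6989. It was also below 0 in G650 (-0.0447) and D2943 (-0.0115), and above 0 on the other 13 arrays besides G6989, with 0.22 in G6603 as the highest.

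Among the 18 small heat shock protein genes of the shortest bin, 2 were called in D1137 and 1 in G6989, which are the genes chosen for those values. The mean share of the 18 was 0.139 in D1137 with the chosen genes and that of the 15 others was 0.0818, and all genes of the bin had 0.113. In G6989 it was 0.192 with the chosen genes and 0.164 for the 15 others, and all genes of the bin had 0.179. The side on which the family lies of the genes of its length thus turns on whether the chosen genes are counted. HSP16.9B, the shortest of the 4 genes and of all 19, had a share of 0 in D1137, and so had 8 more of the 18. HSP18.0 is among these by its median over sets, though 1 of its sets had 0.636 there. HSP22.3, the longest of the 19, was called in D1137. The part of length in the calls at these genes was not tested.

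All 4 sets have names that begin with Os. and end in _at, without _s or _x before the ending. This class makes up 46.3% of the sets on the array and had 1.54% called in D1137 and 3.68% in G6989. The sequences of the probes and their base composition were not used here.

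The genes with the pattern most like the 4 were sought among the genes with a share of 0.5 or more on at least 1 array. Likeness was Pearson's r over the 17 arrays with the mean share of the 4 genes. The 8 highest of 1056 were LOC4348764 (r = 0.977), LOC4343813 (0.969), LOC4339236 (0.967), LOC4349341 (0.962), LOC4324024 (0.96), LOC4347173 (0.96), LOC4325478 (0.96) and LOC4326517 (0.958). Without D1137 their r was between 0.902 and 0.945, with G6989 highest among the remaining arrays for each. LOC4347173 carries the synonym COPT5.1, a name given to copper transporters. LOC4339236 is the called neighbour of HSP22.3, with shares of 0.727 in D1137 and 0.455 in G6989. Of the 8 genes, 6 are 604 to 1110 bp long, while LOC4348764 has 6818 bp and LOC4339236 3475 bp.

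For single genes, HSP24.1 was most like LOC9266097 (r = 0.992) and LOC4343334 (0.988), and HSP23.2 most like LOC4329295 (0.992) and LOC4325264 (0.987). HSP22.3 was most like LOC4324024 and LOC4347173 (0.973 each). All these genes were called in D1137, with shares of 0.545 to 0.818. This follows largely from the ranking, since each ranked gene reached 0.5 on some array and the 3 targets were highest in D1137. Of the 1060 genes called on any array, 302 were called in D1137. HSP16.9B was most like LOC4346797 (0.957) and LOC4346635 (0.933), which both had 0 in D1137 and 0.545 in G6989. These have 4917 and 8090 bp. Their calls in G6989 follow from the ranking in the same way, and 555 of the 1060 genes were called there.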

How the data were processed

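Genomic DNA of 16 mutant lines and wild type IR64 was measured with 1 array each. The authors scanned each array 2 times and averaged the scans. They checked the arrays and left out of their analysis those that deviated strongly from wild type. The arrays left out are not named, and the quality of D1137 and G6989 is not known here. They scaled the log2 perfect match signals to wild type without background correction and flagged probes with a low log2 ratio to wild type. Probe data were read with affy (the sources used here give no version). Each deposited value is a fraction, the flagged part of the perfect match probes in 1 of 57194 probe sets. The methods name more than 1 cutoff on the log2 ratio, and the sources used here do not say which was applied. Probe signals were not analysed here, so signal over background is not known.

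Tables were read with pandas 2.3.3, and statistics were computed with scipy 1.17.1 and numpy 2.4.6 under Python 3.11.15. Of the probe sets, 22436 are paired with exactly 1 gene, 95 with several and 34663 with none. A gene took the median over its sets that are paired with it alone. Lengths and gene order came from the gene table of ASM3414082v1. Coordinates were not used, since the probe sets were not designed on that assembly. In 57036 probe sets all values were multiples of 1/11 within 0.02.

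The 4 genes and the gene lists were chosen with earlier results of these data known. Lists were made from symbols and synonyms: HSP names of small size, names of large chaperones (HSP81, HSP90, HSP101, CLPB, BIP and the like) and HSFA, HSFB and HSFC names. For the large chaperones, 10 genes whose names merely begin with the letters BIP, followed by other letters or by a longer number, were left out after their values were seen. With them the list would gain 1 call in D1137, LOC4347277 (BKI1, 0.727), and none in G6989. Named genes are the 4 genes, their 5 measured neighbours on each side, the called list members, the 8 genes most like the mean of the 4 and the 2 most like each, and RGA1. List members named without a call were singled out after their values were seen.

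The counting and ranking steps were tested on simulated data. Alternatives were thresholds of 0.4 and 0.6, each array minus its mean share over all probe sets, the wild type check subtracted, the highest share over probe sets, sets paired with several genes included, the other arrays without G282, and 10 length bins in place of 5.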

Additional observations from a re-analysis of the deposited data

How the results depend on the processing

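Of 47 alternative values for the main counts, mean shares and length bins, 12 counts or percents and 1 difference in mean share, that of G6989 below, moved by more than 1.5 times. The difference in mean share of the 4 genes from the median of the other arrays ranged from 0.402 to 0.42 in D1137 and from 0.162, with each array minus its mean share, to 0.307 in G6989. The count of the 4 genes called in D1137 was 3 with a threshold of 0.4, 2 with 0.6 or with each array minus its mean share, and 1 with the wild type check subtracted, where HSP23.2 kept its share of 0.636 and HSP24.1 and HSP22.3 had 0.455. The count over all 19 small heat shock protein genes in D1137 was likewise 1 with the wild type check subtracted, and 4 with the highest share over probe sets, HSP18.0 being the addition. HSP16.9B in G6989, alone among the 19 genes there, was called at 0.5 and at 0.4, and the count became 0 with a threshold of 0.6, with each array minus its mean share over all probe sets (0.37) and with the wild type check subtracted (0.455). The percent of the shortest bin of genes called moved to 8.74 in D1137 and 5.89 in G6989 with a threshold of 0.4, and to 2.82 in D1137 and 0.586 in G6989 with 0.6. At each of these thresholds D1137 had more of the shortest than of the longest bin called (1.2% at 0.4 and 0.279% at 0.6), and G6989 fewer (11.9% and 1.01%). No line has a replicate, so no array could be left out within a line. The step of 1 probe in 11 limits each share. The calls of HSP22.3 in D1137 and HSP16.9B in G6989, each with 6 of 11 probes flagged, would be lost with 1 probe fewer. Leaving out D1137 was chosen after seeing the data and lowered each r of the genes most like the 4. No paired analysis was possible because no 2 arrays come from the same line.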
